A study of Homo sapiens with 22 samples.

Results

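Primed cells were compared with drug-susceptible cells of the same well in untreated cultures of WM989, a human melanoma cell line with a mutated BRAF gene. The cells belong to WM989 A6-G3, a subclone of that line, and carried transcribed lineage barcodes. The members are the 2843 cells that the deposited cluster labels call primed, of 12531 cells in the experiment, and the other 9688 cells are called drug-susceptible. Cells had been sorted either without selection or for high EGFR and NGFR protein, left to double a few times without drug and loaded on 8 wells of a droplet chip, 4 labelled r1 and 4 labelled r2. Which wells held which sort was not given in the labels. UMI counts were summed over the primed and over the drug-susceptible cells of each well, which gave 16 sums, and the 2 sums of a well were compared as CPM, the usual counts scaled to a common total of UMIs in every sum. The whole series holds 3 single-cell experiments, and primed and drug-susceptible cells of the other 2 (untreated WM989 cells marked r1 and r2 in a treatment experiment, and WM983B, another melanoma line) served only for comparison, together with ATAC-seq of sorted WM989 cells, 3 libraries sorted for high EGFR and NGFR and 3 labelled Mix. The methods name no Mix sort for ATAC-seq but list cells negative for both proteins. That Mix is this sort was inferred.

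In melanoma the lineage factors MITF and SOX10 drive the pigment programme that melanocytes share. Cells that lose this programme and gain the receptor kinases EGFR and AXL and the neural crest receptor NGFR are known to tolerate inhibitors of BRAF and MEK better, and in untreated cultures such cells are rare and can pass the state to their daughters. AP-1 factors, TGF-beta signals, secreted proteases and matrix proteins are known companions of that state.

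The markers of both states lay on the labelled side in each of the 8 wells. EGFR was at 19.1 to 57.8 CPM in primed cells (median 37.9) and at 2.59 to 8.39 in drug-susceptible cells (median 3.66). AXL, another receptor tyrosine kinase, was at 20.7 to 66.0 CPM (median 35.5) against 0.11 to 4.76 (median 0.56). SOX10 was at 2.71 to 16.8 CPM in primed cells and at 122 to 140 in drug-susceptible cells, and MITF at 35.2 to 97.8 CPM against 269 to 354. NGFR and NT5E, the surface enzyme CD73, were also higher in each well, and for all 6 markers the ranges of the 2 states did not overlap. Because the clusters were made from these same counts, differences between the states are given below as descriptions, with no test. A gene is called higher or lower where its CPM, with 1 CPM added to each state, differed by more than 2-fold the same way in each of the 8 wells.

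The wells differed widely in their make-up. They held 408 to 3841 cells and 35882876 to 177318308 UMIs, and primed cells were 51.6% to 76.5% of the UMIs in wells 1, 2, 5 and 6 and 5.33% to 8.17% in wells 3, 4, 7 and 8. The fewest cells behind a sum were 83 drug-susceptible cells in well 5 and 126 primed cells in well 3, and the primed sum of well 3 held the fewest UMIs (6768610). Across genes, the log2 ratios of wells 1 and 2, 3 and 4, 5 and 6, and 7 and 8 were most alike, with r of 0.969 to 0.985 within such a pair against at most 0.947 with any other well. By the methods, each suspension was split over 2 wells of the chip, so p-values and SDs over 8 wells measure in part technical spread. Only 19 cell barcode sequences occurred in more than 1 well.

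Of 9859 genes whose level averaged 5 CPM or more across the 16 sums, 489 (4.96%) were higher and 308 (3.12%) were lower in primed cells past 2-fold in all 8 wells. Past 8-fold in all 8 wells, 75 genes were higher and 10 were lower, and past 16-fold 20 were higher and 0 lower. The mean log2 ratio over wells had a median of 2.22 among genes called higher, −1.91 among genes called lower and −0.04 over all genes tested. The CPM of the 2 states did not overlap over wells for 468 of the genes called higher and 299 of those called lower, where 26.0% of all genes tested did not overlap. Of 26 genes that the study names in its text, 25 could be tested, 18 were called higher and 4 lower. The other 3 were not called and are named after their values were seen. FOSL1, an AP-1 factor, had a log2 ratio of 1.47 (0.93 to 2.26 over wells), past 2-fold in 7 wells, VGF, a secreted neuropeptide precursor, of 0.96 (−0.29 to 1.64), past it in 6, and SERPINE2, a protease inhibitor, of 0.88 (0.12 to 1.49), past it in 5. The other 471 and 304 called genes are not among these 26. The study also gives supplementary lists of genes that differ between the states, and the called genes were not compared with those lists. Of the genes called higher 216 averaged under 5 CPM in drug-susceptible cells, and of those called lower 108 averaged under 5 CPM in primed cells, so these passed the level filter through a single state and counts in the lists below are descriptions. Of 270 tested genes with names of the long noncoding RNA type, 22 were higher and 15 lower.

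The largest difference in the weakest well belonged to SRGN, which encodes serglycin, the proteoglycan core of secretory granules. SRGN was at 182 to 485 CPM in primed cells (median 266) and at 0.52 to 10.7 in drug-susceptible cells (median 2.24), a log2 ratio of 6.38 ± 0.59 (mean ± SD, n = 8 wells) and of 5.38 in the weakest well. TMEM158, a membrane protein induced by RAS signalling, was at 909 to 2090 CPM (median 1190) against 7.16 to 36.4 (median 12.3), a log2 ratio of 6.42 ± 0.77 (n = 8 wells). Both genes were therefore more than 32-fold higher in each well.
STC1, a secreted glycoprotein hormone, was at 94.6 to 573 CPM (median 240) in primed and 1.21 to 12.2 CPM (median 2.57) in drug-susceptible cells. CEMIP, a protein that binds and breaks down hyaluronan, was at 41.2 to 175 CPM against 0.52 to 6.81, and SCG2, a granin of dense-core vesicles, at 137 to 221 against 2.94 to 8.15. IGFN1 (log2 ratio 5.93 ± 0.59) and the myosin heavy chain MYH15 (5.12 ± 0.47) were also among the higher genes with the largest ratio in their weakest well (n = 8 wells each). The sizes depend on the added 1 CPM: with 0.1 CPM the ratio of MYH15 was 6.73 and that of IGFN1 7.05, and with 5 CPM they were 3.34 and 4.46.

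**Figure D1:**
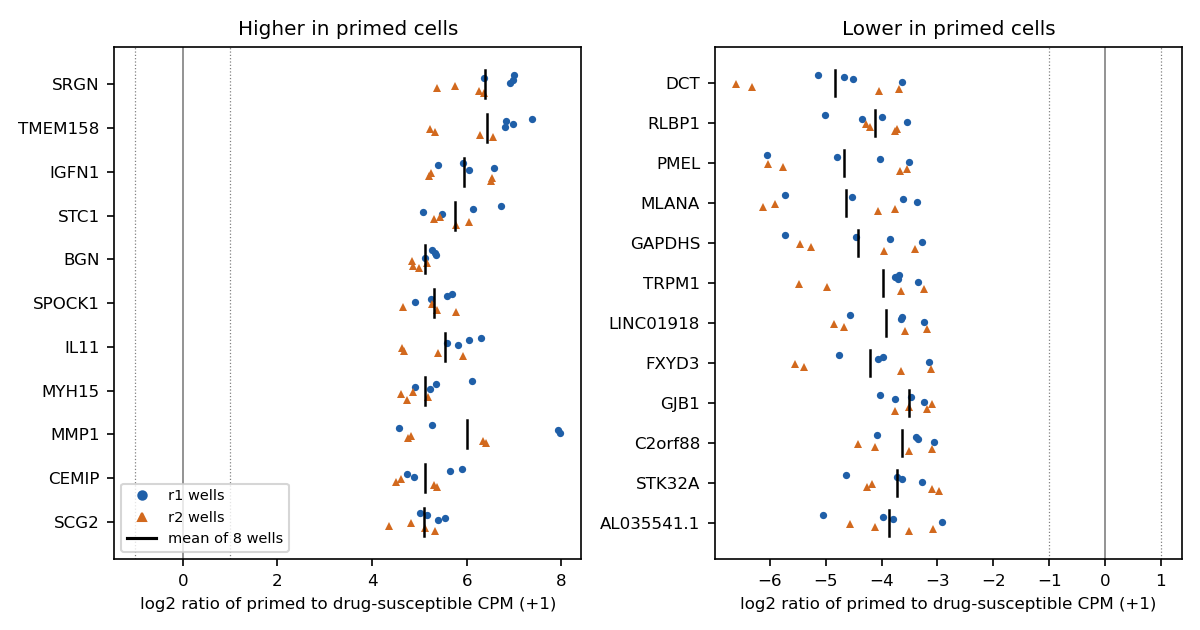
Log2 ratio of primed to drug-susceptible CPM (1 CPM added) in each well for genes with the largest ratio in their weakest well in each direction, 11 higher and 12 lower. Circles are r1 wells, triangles r2 wells and black bars the mean of 8 wells; each point lies beyond the dotted 2-fold lines, and MMP1 and the pigment genes spread most.

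Pigment genes made up the list with the most lower genes. Of 24 tested members of the melanocyte and pigment list, 16 were called lower and 0 higher, with a median log2 ratio of −2.29. DCT, the dopachrome tautomerase of melanin synthesis, was at 10.8 to 48.3 CPM in primed cells (median 19.0) and at 351 to 1148 in drug-susceptible cells (median 613). PMEL, which forms the fibrils of melanosomes, was at 28.0 to 200 CPM (median 104) against 1698 to 2523 (median 2105), and MLANA, a melanosome protein, at 18.2 to 177 CPM (median 81.9) against 1307 to 1839 (median 1601). In no well did a primed sum come within 8-fold of its drug-susceptible partner for these 3 genes. TRPM1, a cation channel of melanocytes whose gene hosts a melanoma microRNA, was at 0.42 to 5.08 CPM against 41.0 to 62.8. TYR, the tyrosinase that starts melanin synthesis, had a log2 ratio of −3.89 ± 1.1 (n = 8 wells).
Outside the list, RLBP1, a retinaldehyde-binding protein of the retina, was at 0.22 to 4.65 CPM against 21.8 to 70.7, a log2 ratio of −4.11 ± 0.46. GAPDHS, the glycolytic dehydrogenase otherwise known from sperm, was at 0.60 to 7.19 CPM against 48.2 to 121. FXYD3, a regulator of the sodium pump, was at 2.74 to 28.0 CPM against 170 to 297, and GJB1, a gap junction protein, at 0.05 to 2.54 against 8.84 to 32.7. C2orf88, the kinase STK32A and the noncoding RNAs LINC01918 and AL035541.1 had log2 ratios of −3.63 ± 0.51, −3.72 ± 0.59, −3.92 ± 0.67 and −3.88 ± 0.72 (n = 8 wells each).

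Promoters of called genes were searched for short motifs in reference sequence from 250 bases before to 50 bases after the start (RefSeq, GRCh38.p14). The table held a promoter for 360 of the genes called higher, 224 of those called lower and 7820 of all genes tested. The M-box, the element that MITF is known to bind, was searched as TCACATG or TCATGTG on both strands, and these 2 forms can overlap each other. It lay in 8.04% of promoters of genes called lower, 3.33% of those called higher and 2.75% of all. The promoters of DCT (chr13:94479633-94479932, minus strand), TYR (chr11:89177625-89177924, plus strand) and TRPM1 (chr15:31101676-31101975, minus strand) are shown 5′ to 3′ because these pigment genes hold a match, in capitals, that starts 215 and 135 bases before the start in DCT, 105 and 12 in TYR and 57 in TRPM1.
DCT: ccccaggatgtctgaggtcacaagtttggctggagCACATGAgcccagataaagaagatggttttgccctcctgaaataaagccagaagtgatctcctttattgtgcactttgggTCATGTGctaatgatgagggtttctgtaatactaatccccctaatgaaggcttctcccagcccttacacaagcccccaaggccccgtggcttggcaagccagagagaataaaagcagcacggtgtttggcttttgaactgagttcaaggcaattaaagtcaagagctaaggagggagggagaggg
TYR: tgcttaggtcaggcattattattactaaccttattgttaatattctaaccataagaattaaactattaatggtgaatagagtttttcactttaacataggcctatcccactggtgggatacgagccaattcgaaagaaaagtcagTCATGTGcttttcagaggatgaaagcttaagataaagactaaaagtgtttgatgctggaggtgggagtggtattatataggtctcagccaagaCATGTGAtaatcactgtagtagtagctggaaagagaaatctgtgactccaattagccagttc
TRPM1: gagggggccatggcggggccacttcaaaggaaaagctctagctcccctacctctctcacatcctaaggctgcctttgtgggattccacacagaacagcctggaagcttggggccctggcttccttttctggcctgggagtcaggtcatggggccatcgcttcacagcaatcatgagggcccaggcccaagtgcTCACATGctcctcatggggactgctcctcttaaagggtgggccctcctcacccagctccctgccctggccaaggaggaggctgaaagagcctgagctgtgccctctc
The E-box CACGTG lay in 10.3% of promoters of genes called lower, 5.83% of those called higher and 10.9% of all, and the SOX motif AACAATG in 0.893%, 1.11% and 1.30%. A match says only that the letters are there.

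Some transcription factors of AP-1 and the immediate early response were higher. Of 16 tested members of that list, 8 were called higher and 0 lower, with a median log2 ratio of 1.43, and 1 was below 0 in all 8 wells. JUN, the core AP-1 subunit, was at 40.5 to 110 CPM (median 80.0) in primed and 1.84 to 9.21 CPM (median 5.23) in drug-susceptible cells. The early response genes IER3 and IER2 had log2 ratios of 2.28 ± 0.36 and 1.71 ± 0.20 (n = 8 wells). FOSB, whose protein pairs with JUN, had a ratio of 2.43 ± 0.61, although its ranges of 7.92 to 38.4 and 1.36 to 8.58 CPM overlapped between wells. The AP-1 motif, searched as TGANTCA, which reads the same on both strands, lay in 9.72% of promoters of genes called higher, 4.46% of those called lower and 3.91% of all. The TEAD motif GGAATG, on either strand, lay in 12.8%, 13.4% and 9.91% of these promoters, and the NF-kappaB motif in 1.94%, 1.79% and 2.19%.

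Cytokine and growth factor genes often lay under the level filter, with 22 of 33 and 27 of 54 members not tested. Of 11 tested cytokine and chemokine genes, 8 were called higher and 0 lower, and of 27 tested growth factor and hormone genes 17 were higher and 1, ANGPTL2, lower. All 8 higher cytokine genes and 12 of the 17 higher growth factor genes averaged under 5 CPM in drug-susceptible cells, so they passed the filter only through primed cells and had to differ, and their shares support nothing about the lists. IL11, a cytokine of the IL-6 family, was at 58.9 to 154 CPM (median 106) in primed and 0.25 to 5.07 CPM (median 0.69) in drug-susceptible cells. IL1B, an inflammatory cytokine, was at 18.3 to 109 CPM (median 59.1) against 0.01 to 1.17 (median 0.24), CCL2, which attracts monocytes, at 12 to 159 against 0.11 to 5.54, and IL24 at 14.3 to 60.6 against 0.10 to 1.03. Each of these 4 genes differed more than 8-fold in each well. Among growth factors, LTBP1, which holds latent TGF-beta in the matrix, had a log2 ratio of 4.41 ± 0.54, and the vessel growth factors VEGFC and VEGFA had 4.36 ± 0.33 and 4.09 ± 0.27 (n = 8 wells each). The promoter of IL11 (chr19:55370414-55370713, minus strand, GRCh38.p14) is shown because its chromatin peaks in the sorted cells are also given. Its AP-1 match, in capitals, starts 96 bases before the start.
IL11: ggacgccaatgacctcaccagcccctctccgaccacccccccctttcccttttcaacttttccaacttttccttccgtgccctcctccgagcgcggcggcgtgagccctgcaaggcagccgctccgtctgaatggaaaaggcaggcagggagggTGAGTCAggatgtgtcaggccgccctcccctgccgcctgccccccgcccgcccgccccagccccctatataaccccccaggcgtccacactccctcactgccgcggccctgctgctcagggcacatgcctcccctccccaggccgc

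Matrix and adhesion genes differed in both directions. Of 32 tested extracellular matrix genes, 15 were called higher and 2 lower, the latter being the laminin chain LAMA4 and MGP, an inhibitor of calcification, and 7 were below 0 in all 8 wells. BGN, the proteoglycan biglycan, was at 81.6 to 240 CPM (median 120) against 1.03 to 5.30 (median 2.70), with a log2 ratio of 5.11 ± 0.20. SPOCK1, a testican proteoglycan, was at 33.8 to 134 CPM against 0.07 to 3.61, and COL1A1, a chain of type I collagen, at 65.9 to 237 against 0.61 to 9.22. COL6A2, a chain of type VI collagen, was at 438 to 1182 CPM against 12.8 to 33.0. Of 16 tested integrins and cadherins, 9 were called higher and 0 lower, and 2 were below 0 in all 8 wells. ITGA3, which pairs with integrin beta 1 to bind laminin, was at 175 to 290 CPM against 11.5 to 26.7, and the collagen receptor chain ITGA11 at 10.4 to 51.5 against 0.19 to 1.60. CDH13, a cadherin tethered to the membrane by lipid, and ITGA2 had log2 ratios of 3.48 ± 0.36 and 3.58 ± 0.54 (n = 8 wells). Of the higher genes, 7 of 15 matrix genes and 3 of 9 integrins and cadherins averaged under 5 CPM in drug-susceptible cells. These passed the filter only through primed cells.
Actin genes had smaller ratios, with 7 of 22 higher and 0 lower. The focal adhesion proteins ZYX and VCL, the tropomyosin TPM4 and the myosin kinase MYLK had log2 ratios of 1.81 ± 0.15, 1.82 ± 0.18, 1.82 ± 0.17 and 2.38 ± 0.32.

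Of 29 tested proteases and their inhibitors, 13 were called higher and 1 lower, the lower being PLAT, the tissue plasminogen activator. MMP1, a collagenase, was at 1348 to 3951 CPM (median 2195) in primed and 13.7 to 90.0 CPM (median 36.1) in drug-susceptible cells. PLAUR, the urokinase receptor, had a log2 ratio of 3.48 ± 0.15, and MMP3, stromelysin, 3.90 ± 0.84 (n = 8 wells each). Of 22 tested TGF-beta pathway genes and targets, 10 were higher and 1 lower, the lower being the decoy receptor BAMBI. The target PMEPA1, which damps the pathway, had a log2 ratio of 2.78 ± 0.57, and the ligand TGFB1 and receptor TGFBR2 had 2.48 ± 0.22 and 2.24 ± 0.19. Of 15 tested YAP and TEAD targets, 5 were higher and 0 lower, among them CRIM1 (3.03 ± 0.32), the clotting initiator F3 (2.02 ± 0.27) and the phosphatase PTPN14 (1.70 ± 0.25). Some higher genes passed the level filter only through primed cells. They were 5 of the 13 protease genes, 4 of the 10 TGF-beta genes and 3 of the 5 YAP and TEAD targets. Over all genes tested 4.96% were higher and 3.12% lower.

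Receptor and signalling genes differed both ways. Of 17 tested receptor tyrosine kinases, 5 were higher and 1 lower, and 4 of the 5 higher averaged under 5 CPM in drug-susceptible cells. PDGFRA, a receptor for platelet-derived growth factors, was at 8.36 to 65.0 CPM against 0.38 to 2.47, while ERBB3, the neuregulin receptor of the melanocyte lineage, was at 4.47 to 13.6 CPM against 65.0 to 93.7. Of 18 tested ERK feedback genes, 7 were higher and 3 lower. ERRFI1, an inhibitor of EGFR, was at 84.8 to 284 CPM against 2.79 to 14.6, a log2 ratio of 4.42 ± 0.18, and CCND1, cyclin D1, at 3792 to 4523 CPM against 357 to 685. The ETS factor ETV1 was higher, with a ratio of 2.42 ± 0.17, and the lower members were ETV4, ETV5 and MYC. In G1 cells alone 7 members of this list were called higher and 1 lower. Of 47 other surface antigens, 16 were higher and 4 lower. Of these, 9 higher ones averaged under 5 CPM in drug-susceptible cells and 1 lower one in primed cells. Of 19 NF-kappaB, IRF and STAT factors, IRF1 (2.1 ± 0.29), BCL3 (1.92 ± 0.12) and CEBPB (2.04 ± 0.30) were higher, and NFKBIZ (−1.73 ± 0.26) was lower. Of 32 tested EMT and neural crest factors, 7 were higher and 6 lower. Of these, 3 higher ones averaged under 5 CPM in drug-susceptible cells and 1 lower one in primed cells. The nuclear receptor NR2F1 was at 19.0 to 41.5 CPM against 0.77 to 3.07, FOXF1 and TFAP2C had log2 ratios of 3.2 ± 0.52 and 2.12 ± 0.17, and SOX6, a partner of SOX10 in the melanocyte lineage, was lower at 3.13 to 12 CPM against 58.5 to 84.6.

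**Figure D2:**
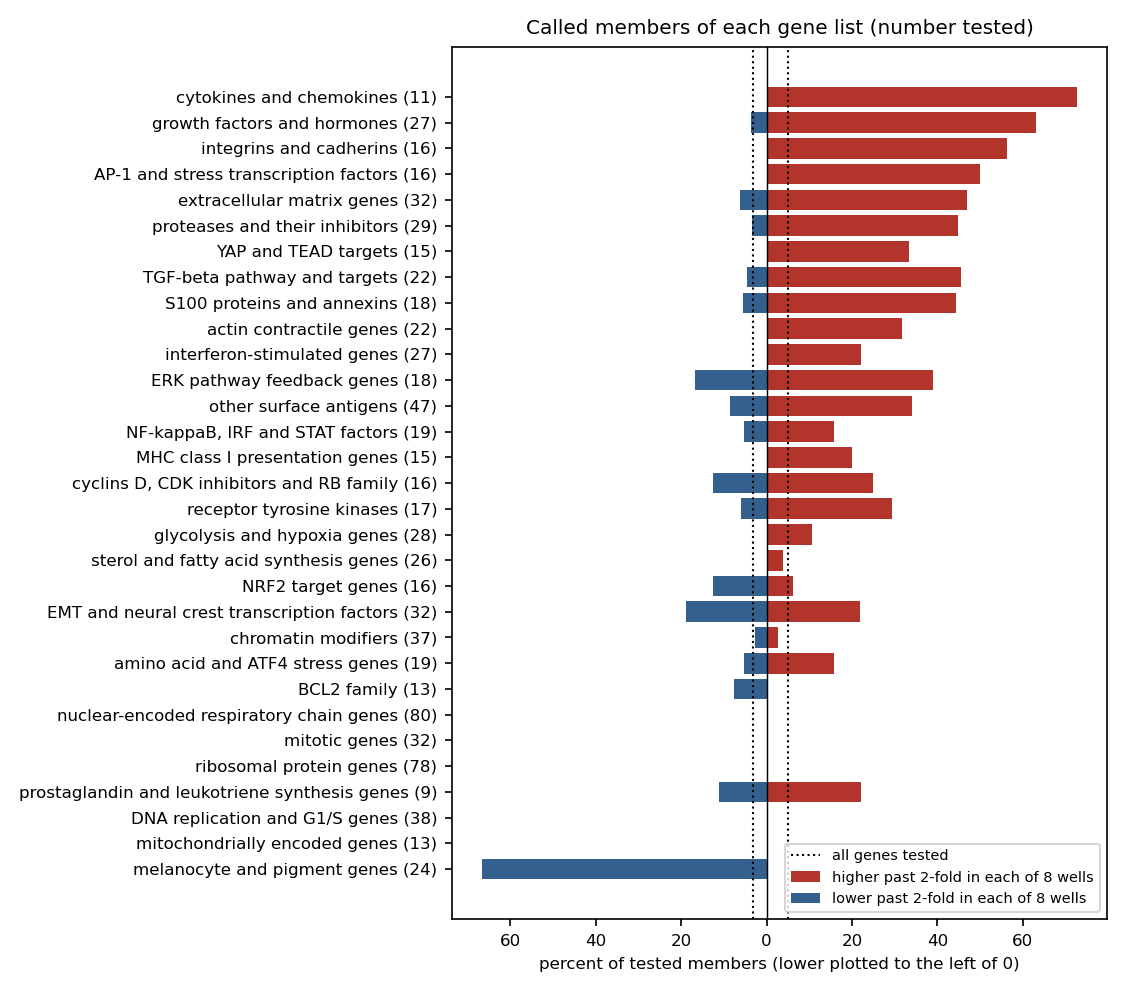
Percent of tested members of each gene list called higher (bars to the right) or lower (bars to the left) past 2-fold in all 8 wells, for lists with at least 9 tested members, ordered by the median log2 ratio. Dotted lines mark 4.96% and 3.12%, the shares over all genes tested. Cytokine genes (8 of 11 higher) and pigment genes (16 of 24 lower) lie at the ends, and ribosomal, respiratory and cell division lists hold no called gene. All 8 higher cytokine genes passed the level filter only through primed cells, so the share of that list supports nothing.

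Some genes known from other cell types were higher in primed cells. Of 26 genes usual in leukocytes, 5 passed the level filter and 3 were called higher. All 3 averaged under 5 CPM in drug-susceptible cells and so passed the filter only through primed cells. SIRPB1, a myeloid receptor, was at 20.4 to 78.0 CPM against 0.07 to 1.87, ALOX5AP, which feeds leukotriene synthesis, at 9.15 to 38.6 against 0.01 to 0.39, and CYTIP, a cytohesin partner of lymphocytes, at 4.85 to 37.8 against 0 to 0.93. The summed level of the list was 115 to 302 CPM in primed and 34.7 to 78.4 CPM in drug-susceptible cells. Among members under the filter, LAPTM5 of lysosomes was at 3.02 to 9.52 CPM against 0.02 to 0.29 and CSF1R, a receptor of macrophages, at 2.31 to 4.91 against 0 to 0.07, and FCER1G, an immune receptor chain, was tested but not called at 11.4 to 20.3 against 3.41 to 13.4, as was CD68 at 47.6 to 136 against 22.2 to 63.9. Members also went the other way, with CORO1A, an actin-binding protein of leukocytes, at 0.27 to 1.27 CPM in primed and 1.67 to 3.94 in drug-susceptible cells and LYZ, which encodes lysozyme, at 0 to 1.12 against 0.73 to 1.61. LCP1, another actin-binding protein, was at 0.45 to 2.08 against 0.46 to 1.16. Several defining markers were at or near 0 in both states, with PTPRC (CD45) at no more than 0.14 CPM, CD3E at no more than 0.02, and MS4A1 and TYROBP at 0 in all 16 sums.
Of 15 fibroblast, endothelial and keratinocyte markers, 6 passed the filter and 4 were higher, and all 4 passed it only through primed cells. FAP, a surface protease of activated fibroblasts, was at 21.2 to 39.5 CPM against 0.06 to 0.93, PECAM1, an adhesion molecule of endothelium, at 14.7 to 27.3 against 0 to 0.68, and PDGFRB at 9.89 to 19.5 against 0.56 to 1.74. Their sum with the other members was 260 to 375 CPM against 145 to 178. Under the filter, DCN, the matrix protein decorin of fibroblasts, was at 4.11 to 11.2 CPM against 0.78 to 1.79, and VWF, a clotting protein of endothelium, at 1.8 to 2.97 against 0.15 to 0.44. LUM, a proteoglycan of fibroblasts, was lower without being called, at 11.2 to 21.2 against 24.4 to 39.3. COL3A1, a defining collagen of fibroblasts, was at no more than 0.42 CPM, CDH5 and CLDN5 of endothelium at no more than 0.05 and 0.03, and KRT5 and KRT1 of keratinocytes at 0. KRT10, another keratin of keratinocytes, was at 165 to 221 CPM in primed and 111 to 137 in drug-susceptible cells, without overlap but under 2-fold in every well, and made up most of that sum at the median of both states. The part of either marker list in the other differences was not tested.

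Genes of defence and stress gave a mixed picture. Of 27 interferon-stimulated genes 6 were higher and 0 lower, including OASL (log2 ratio 3.26 ± 1.02), BST2 (2.76 ± 0.45), IFI44L (2.72 ± 0.67) and RSAD2 (2.25 ± 0.80), and of 15 MHC class I genes 3 were higher and 0 lower, including HLA-B (2.07 ± 0.33) and NLRC5 (1.86 ± 0.20). Of the 6 higher interferon-stimulated genes, 5 averaged under 5 CPM in drug-susceptible cells. The 3 tested metallothioneins, which bind zinc and copper, were all higher, and MT2A was at 3279 to 9387 CPM against 401 to 821. Of 18 S100 proteins and annexins, 8 were higher and 1 lower: ANXA1 was at 95.9 to 239 CPM against 1.93 to 13.8 and S100A6 at 7897 to 12495 against 1351 to 2053, while S100B, a marker of the melanocytic lineage, was at 26.5 to 152 against 428 to 873. Of 7 IGF binding proteins, IGFBP7 (5.01 ± 1.0) and IGFBP6 (2.35 ± 0.66) were higher. Of 9 prostaglandin and leukotriene genes, ALOX5AP and the aldose reductase AKR1B1 (2.22 ± 0.95) were higher and HPGD, which breaks down prostaglandins, was lower (−3.26 ± 0.55).
Metabolic lists held at most 3 genes called higher and 2 called lower each, and the lists were not compared with each other by a test. Over all genes tested 4.96% were higher and 3.12% lower, so 1 called gene in a list of this size is no result about the list. Of 28 glycolysis and hypoxia genes, NDRG1 (3.55 ± 0.58), the peptide hormone ADM (2.94 ± 0.41) and the lactate exporter SLC16A3 (1.80 ± 0.27) were higher. Of 26 sterol and fatty acid genes only INSIG1 was called, at 177 to 255 CPM against 40.4 to 60.5, and of 19 amino acid and ATF4 stress genes 3 were higher and 1, the transporter SLC7A5 (−1.69 ± 0.20), was lower. Of 16 NRF2 targets, ME1 (3.09 ± 0.61) was higher and the peroxiredoxin PRDX1 was lower, at 924 to 1240 CPM against 3157 to 4895, as was OSGIN1. Of 37 chromatin modifiers, HDAC7 (1.75 ± 0.25) was higher and CHD7 (−1.84 ± 0.21) lower, and of 13 BCL2 family genes only HRK, a promoter of cell death, was called (−2.24 ± 0.47). The chromatin list thus held 2.70% called each way, under the shares over all genes. None of 78 ribosomal protein genes (median log2 ratio −0.24), 80 nuclear genes of the respiratory chain (−0.19) or 13 mitochondrially encoded genes (−0.67) was called, although 12 of the 13 mitochondrial ones were below 0 in all 8 wells. Their sum was 73642 to 109291 CPM in primed and 115263 to 164125 CPM in drug-susceptible cells.

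Cell cycle phase, as the authors called it, differed between the states. In primed cells 62.6% to 78.7% of cells were in G1, against 20.1% to 31.9% of drug-susceptible cells. None of 38 replication and G1/S genes and none of 32 mitotic genes was called, with medians of −0.60 and −0.22, although 32 and 8 of them were below 0 in all 8 wells. In G1 cells alone these medians were 0.17 and 0.40. Of 16 cyclins D, CDK inhibitors and RB family genes, 4 were higher and 2 lower. CDKN1A, the CDK inhibitor p21, was at 22.2 to 35.9 CPM against 0.68 to 1.94, CDKN2B at 34.9 to 54.9 against 8.08 to 12, and CDK2 was lower at 12.5 to 27.9 against 102 to 182. CDK2 lies beside PMEL in the genome.
Restricting both states to G1 cells left 433 genes higher (4.39%) and 291 lower (2.95%) in all 8 wells. Of the genes called over all cells, 412 (84.3%) of the higher and 271 (88.0%) of the lower were also called in G1, which are 95.2% and 93.1% of the G1 calls. NGFR was not called in G1, with a log2 ratio of 3.45 ± 1.18 there against 3.97 ± 0.67 over all cells and a lowest well at 0.95, and nor was HDAC7, at 1.5 ± 0.40 against 1.75 ± 0.25 with a lowest well at 0.96 (n = 8 wells). The G1 sums of drug-susceptible cells came from as few as 18 cells in well 5 and 30 in well 6. Within G1, S and G2M cells each on their own, 281 of the higher and 162 of the lower genes were called. The called genes with G1 ratios nearest to 0 were HIST1H2BD (log2 ratio 1.44 over all cells, 0.84 in G1), AC245297.3, RTN2, PINK1 and CALCOCO1 among the higher, and BTBD3 (−1.15 and −0.89), BRI3BP, KIN, RAVER2 and MRPS25 among the lower, so no called gene was at 0 or of the opposite sign in G1. Another 21 genes were called higher and 20 lower in G1 but not over all cells, and those with the largest G1 ratio were the mitotic gene CKAP2L (2.21 in G1, 0.83 over all cells), CA8 (−2.58 and −2.05), FAM20C, LINC00698 and GPRC5B. The median percent of mitochondrial UMIs per cell was 6.85% to 10.2% in primed and 11.1% to 15.9% in drug-susceptible cells over wells.

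The depth per cell differed within wells. The median UMIs per cell were lower in primed than in drug-susceptible cells in 8 of 8 wells, with a ratio of 0.627 to 0.864 and a mean log2 difference of −0.45 ± 0.14 (SD, n = 8 wells; exact sign-flip permutation test, two-sided, p = 0.00781, adjusted over 2 tests 0.0156, the former being the smallest that 8 wells allow). Over the pooled cells the order turned, with medians of 58253 UMIs in primed and 52835 in drug-susceptible cells, and wells 5 and 6, the richest in primed cells, had the highest medians of both states. In G1 cells alone the mean log2 difference was −0.35 ± 0.22, with primed cells lower in 7 of 8 wells (exact sign-flip permutation test, p = 0.0156, adjusted 0.0313). If wells 1 and 2, 3 and 4, 5 and 6, and 7 and 8 counted as 1 each, the smallest p would be 0.125. A cell counted as barcoded here when it held any UMI of a lineage barcode. The study filtered its lineages further and reports fewer cells with a barcode. By this looser count, the share of cells with a lineage barcode was 93.4% to 98.8% in primed and 81.9% to 97.0% in drug-susceptible cells. It was higher in primed cells in 6 of 8 wells, by 4.96 ± 6.54 percentage points (SD, n = 8 wells), and this difference did not pass the exact permutation test (p = 0.0625, adjusted 0.0625). In G1 cells alone this difference was 4.24 ± 6.12 points (exact permutation test, p = 0.141). Cells were not thinned to equal depth for this share. CPM gives the fraction of a sum's UMIs and not the amount of RNA per cell.

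The size of the ratios moved with the make-up of the well. For 274 of the 308 genes called lower, the ratio was further from 0 in wells 1, 2, 5 and 6, where primed cells held most UMIs, than in wells 3, 4, 7 and 8, with medians of −2.20 and −1.73. Among the genes called higher, 199 of 489 had the larger ratio in wells 3, 4, 7 and 8, and the medians were 2.26 and 2.13. PMEL in primed cells was at 28.0, 59.7, 36.5 and 41.0 CPM in wells 1, 2, 5 and 6 and at 155, 200, 165 and 149 CPM in wells 3, 4, 7 and 8, while its level in drug-susceptible cells was 1698 to 2523 CPM throughout. SOX10 in primed cells likewise was at 3.62, 9.16, 2.71 and 3.67 CPM in the former wells and at 16.8, 14.1, 15.2 and 10.8 CPM in the latter. In drug-susceptible cells MMP1 was at 56.4, 72.3, 76.3 and 90.0 CPM in wells 1, 2, 5 and 6 and at 13.7, 14.7, 15.6 and 15.9 in wells 3, 4, 7 and 8. SRGN in drug-susceptible cells followed this split within each replicate. In r1 it was at 1.44 and 2.11 CPM in wells 1 and 2 and at 0.57 and 0.52 in wells 3 and 4. In r2 it was at 7.96 and 10.7 CPM in wells 5 and 6 and at 2.36 in wells 7 and 8. Across replicates, wells 1 and 2 lay below wells 7 and 8. Not all genes followed the split in both replicates. STC1, a secreted glycoprotein hormone, did so in r2, at 12.2 and 12.1 CPM in wells 5 and 6 against 3.15 and 3.57. In r1 its levels overlapped, at 1.21 and 1.98 CPM in wells 1 and 2 against 1.82 and 1.47. The part of free RNA and of droplets with 2 cells in these levels was not tested. The primed cells of the wells also differed in their mix of deposited clusters, with 7 to 783 cells of cluster 2 in a well. The part of that mix was not tested either. Nor was the part of the sort that the cells came from, which the labels do not give for each well.

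**Figure D3:**
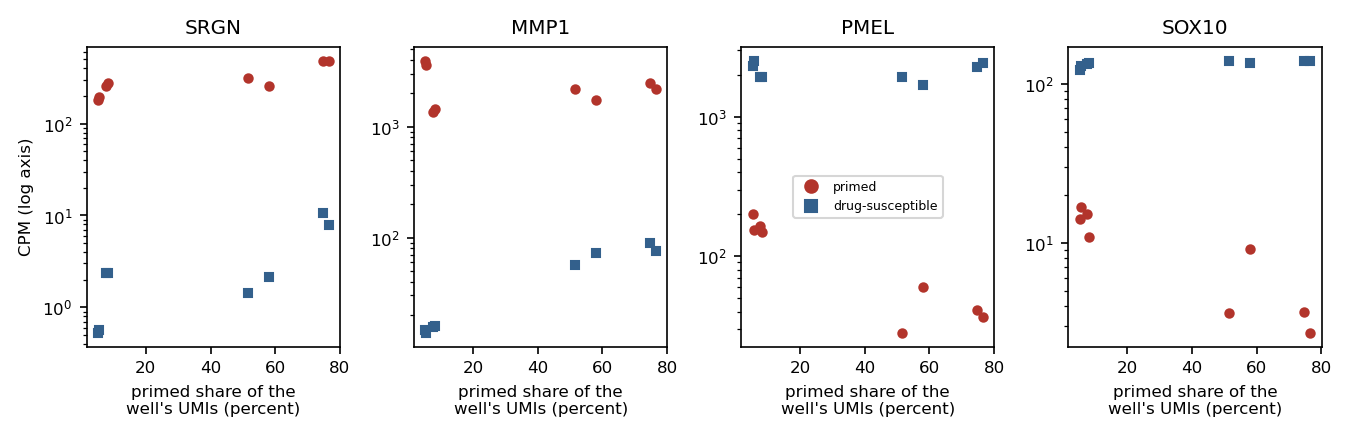
CPM (log axis) of SRGN, MMP1, PMEL and SOX10 in primed (circles) and drug-susceptible cells (squares) of each well against the percent of the well's UMIs that came from primed cells. MMP1 in drug-susceptible cells lay between 13.7 and 15.9 CPM in the 4 wells with few primed cells and between 56.4 and 90.0 in the others, and PMEL in primed cells lay between 149 and 200 and between 28.0 and 59.7 CPM.

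Among called genes with a mean of at least 50 CPM, G0S2, an inhibitor of fat breakdown, varied most between wells, with a log2 ratio of 4.96 ± 1.60 (n = 8). In primed cells it was at 281, 290, 176 and 161 CPM in wells 1, 2, 5 and 6 and at 15.8, 10.7, 23.3 and 27.5 CPM in wells 3, 4, 7 and 8. MMP1 (6.01 ± 1.38) and NNMT, the nicotinamide methyltransferase (3.55 ± 1.27), came next. The most even were the mitochondrial dioxygenase ETHE1 (1.73 ± 0.06), TCEAL9 (1.1 ± 0.06) and the actin-binding TAGLN2 (1.58 ± 0.07).
A further 68 genes were higher and 59 lower past 2-fold in 7 wells but not in the remaining well. Those with the largest mean ratio were HIVEP3 (2.01, lowest 0.94), LINC00326, CHN1, FAM20C and KCTD12 among the higher, and LINC00698 (−2.49, weakest −0.93), C11orf96, CST1, GPRC5B and PPY among the lower. CST1, a cystatin, ranged from −4.43 to −0.02.
Only 6 of 9859 genes were past 2-fold in opposite directions in different wells, and they were singled out after their values were seen. ID1, an inhibitor of differentiation induced by BMP signals, had log2 ratios of 2.45 and 2.21 in wells 3 and 4 and of −2.06, −0.73, −1.93, −2.39, −0.16 and −1.55 in wells 1, 2, 5, 6, 7 and 8. Its relative ID3 was at 1.06 and 0.92 in wells 3 and 4 and between −2.88 and −1.42 in the other wells. The cystine transporter SLC7A11 was at −1.63 and −1.71 in wells 7 and 8 and between 0.04 and 1.69 elsewhere. MET, the receptor of hepatocyte growth factor, ranged from −1.45 to 2.05, the hyaluronan synthase HAS2 from −2.22 to 1.52 and SORBS2 from −1.06 to 1.05.

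The difference between the states was also compared between r1 and r2 in a single fit (edgeR quasi-likelihood test of the state by replicate term, with well as a block). Of 9859 genes 253 (2.57%) passed an adjusted p of 0.05, 117 with a larger and 136 with a smaller log2 ratio in r2. With total counts in place of TMM scaling 291 passed and the balance turned, with 177 larger and 114 smaller. Among genes called higher 29 of 489 (5.93%) passed, 24 of them with a smaller ratio in r2, and among genes called lower 3 of 308 (0.974%). These p-values treat the 8 wells as replicates, although each suspension had been split over 2 wells. With wells 1 and 2, 3 and 4, 5 and 6, and 7 and 8 summed, pairs taken from their likeness after seeing the data, r1 and r2 held 2 sums per state each and 0 of 9859 genes passed (edgeR, 582 at an unadjusted p under 0.05; DESeq2 was run on the 8 wells only). The adjusted p of the 10 genes named below was then 0.723 to 0.76, while their terms kept their direction, so a difference between r1 and r2 beyond that between these pairs was not shown. The count of 253 ranged from 55 to 136 when a single well was left out, below the full count in each case.
CCL3 and CXCL8, chemokines for monocytes and neutrophils, had the largest terms. CCL3 in primed cells was at 0.16, 2.34, 0 and 0.95 CPM in the r1 wells and at 8.22, 4.24, 3.23 and 61.4 CPM in the r2 wells, a difference of 6.04 ± 0.81 (log2, SE; edgeR adjusted p = 0.00949). CXCL8 was at 1.30, 3.29, 1.18 and 4.87 CPM in r1 and 13, 12.4, 101 and 10.4 in r2 (5.34 ± 1.17; edgeR adjusted p = 0.0489). Well 8 stood far above the rest for CCL3 and well 7 for CXCL8. The adjusted p over alternative fits and left-out wells ranged from 1.47e-15 to 0.723 for CCL3 and from 1.26e-13 to 0.723 for CXCL8. Over the same fits the log2 term ranged from 4.09 to 6.67 for CCL3 and from 3.52 to 6.93 for CXCL8. MIR3681HG differed on the side of drug-susceptible cells, at 2.52 to 2.72 CPM in r1 and 0.33 to 0.58 in r2, and CCDC26 on the side of primed cells, at 0.49 to 1.16 CPM in r1 and 4.99 to 5.69 in r2. The matrix protein PRELP (1.48 ± 0.30) was the fifth gene with a higher ratio in r2.
Terms below 0 belonged to CYTIP (−3.39 ± 0.66), NRP1, a co-receptor of semaphorins and VEGF (−2.16 ± 0.39), NGFR (−2.08 ± 0.36), the collagen chain COL9A3 (−1.43 ± 0.18) and OLFML3, a secreted matrix protein (−1.42 ± 0.18; edgeR adjusted p of 0.0079 to 0.0348 for these 5). NGFR in drug-susceptible cells was at 0.28 to 0.57 CPM in r1 and at 1.40 to 3.69 in r2, and in primed cells at 26.7 to 34.1 and 26.2 to 46.0 CPM. For NGFR the ranges of r1 and r2 were thus apart in drug-susceptible cells and overlapped in primed cells.

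**Figure D4:**
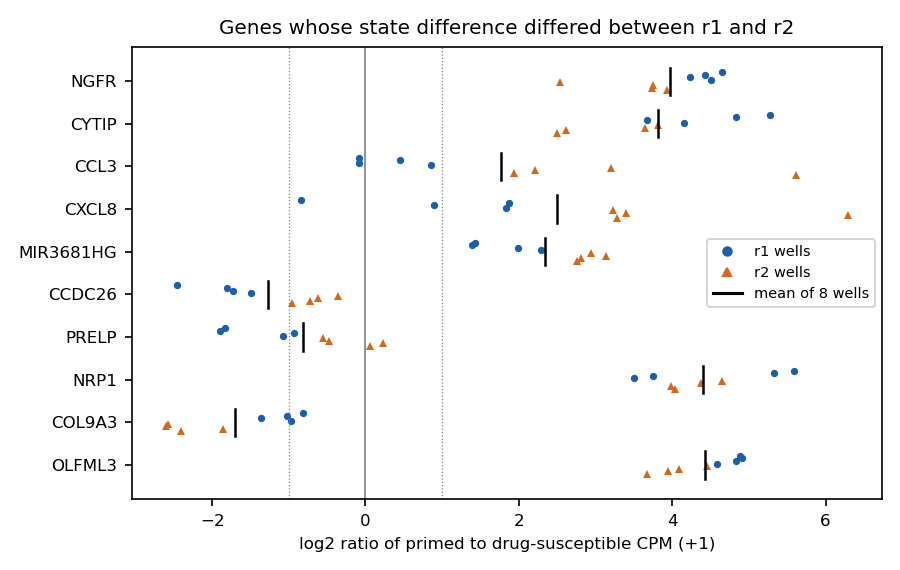
Log2 ratio of primed to drug-susceptible CPM (1 CPM added) per well for the 5 genes in each direction with the largest state by replicate term. Circles are r1 wells, triangles r2 wells and bars the mean of 8 wells; the r1 and r2 wells overlap for CYTIP and NRP1 and for none of the other 8 genes, and CXCL8 spans −0.84 to 6.29.

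The primed label covers 3 of the deposited clusters, numbered 2, 8 and 9, with 1588, 633 and 622 cells. Each was set against the drug-susceptible cells of the same well where at least 10 of its cells were present, in 6 wells for cluster 2 and in 8 for the others. Past 2-fold on the mean were 487 of the 489 higher genes in cluster 2, 467 in cluster 8 and 473 in cluster 9, and 456 in all 3. Of the 308 lower genes 298 were past 2-fold in all 3. Pigment genes differed in size: DCT had a mean log2 ratio of −5.74 in cluster 2 and −6.32 in cluster 9 but −3.24 in cluster 8, and SOX10 of −4.60, −4.86 and −2.62. EGFR was at 3.13, 2.68 and 2.34 in clusters 2, 9 and 8, and AXL at 3.84, 4.81 and 4.38. The clusters were drawn on these genes, so these values are descriptions.

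Libraries that played no part in the calls were then read for the same genes. The treatment experiment holds 2 untreated samples, labelled MixControl and PrimedControl, and its deposited cell table names untreated cells only as r1 and r2, which could not be matched to those labels. In these cells, with 94 and 165 primed cells in r1 and r2, 478 of 482 higher genes found in that table had the same direction in both libraries (99.2%) and 396 (82.2%) were past 2-fold in both. Over all 9746 tested genes in the table, 39.8% were higher in both and 5.80% past 2-fold. Of 303 lower genes, 284 (93.7%) had the same direction and 131 (43.2%) were past 2-fold in both, against 38.7% and 1.82% of all genes. IL11 had log2 ratios of 6.31 and 6.01 there, SRGN of 6.34 and 6.83, and MMP1 of 6.73 and 7.53. SOX10 and ERBB3 differed less there, at −0.93 and −0.95 and at −0.91 and −1.26, and G0S2 was at 0.75 and −0.40.
In WM983B, with 731 primed and 718 drug-susceptible cells, the ratios were smaller. The primed label took in a far larger share of cells than in the untreated WM989 libraries. Those held 94 and 165 primed beside 4058 and 3527 drug-susceptible cells. The part of this broader label in the smaller ratios was not tested. In WM983B 428 of the 482 higher genes (88.8%) and 243 of the 303 lower genes (80.2%) had the same direction, beside 56.8% and 42.9% of all tested genes, and 58 (12%) and 40 (13.2%) were past 2-fold, beside 0.831% and 0.708%. With 0.1 CPM added in place of 1, 18.3% of the higher and 16.2% of the lower genes were past 2-fold. In G1 cells these shares were 20.5% and 14.9%. MLANA (−4.16), TRPM1 (−2.60) and DCT (−2.27) were among the lower genes that held in WM983B, and CCL2 (2.48), IL11 (2.27) and NGFR (2.1) among the higher. SRGN was at 0.19, BGN at 0.24, and SOX10 at −0.12. In the treatment experiment the study chose the primed clusters by known marker genes. Its text does not say how the states of WM983B were set. These counts therefore carry no test.

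Chromatin accessibility offered a measure that the labels did not use. For each gene with a start site in GENCODE on hg38, the highest ATAC-seq peak within 1000 bases was compared between EGFR/NGFR-high and Mix libraries, as log2(fold enrichment + 1), with 0 for no peak. Peaks had been called in each library on its own. Of 9472 promoters with a peak in at least 3 of the 6 libraries, 48 (0.507%) were higher and 6 (0.0633%) lower in EGFR/NGFR-high cells at an adjusted p of 0.05 (limma). Among genes called higher in primed cells, 33 of 424 promoters were higher (7.78%) and 0 lower. Of these 33, 19 had a peak in all 3 Mix libraries, 7 in 1 or 2 and 7 in none. Promoters with no Mix peak passed the filter only through the EGFR/NGFR-high libraries and enter the test as an imputed 0 without spread, so they count as a description of the peak lists. Among the 9406 promoters with a peak in all 6 libraries, a setting added after seeing the data, 45 (0.478%) were higher and 10 (0.106%) lower (limma), and for genes called higher 25 of 395 were higher (6.33%) and 0 lower. Among genes called lower, 1 of 277 was lower and 1, MXI1, was higher, and with a peak in all 6 libraries 2 of 272 were lower and 1 higher. The median difference was 0.17 for genes called higher, 0.02 for genes called lower and 0.08 for all. Without replicate 1, 4 promoters of genes called higher passed.
CPA4, a secreted carboxypeptidase, had peaks of 11, 5.67 and 7.94 fold enrichment in the EGFR/NGFR-high libraries and no called peak in the Mix libraries. FAP, ANXA1, CDH13 and LMO2, a bridging factor of blood cells, also had peaks of 4.96 to 9.82 fold in each EGFR/NGFR-high library and no called peak in Mix. GLIPR1 and OASL were the other called genes of this kind. Of 12 higher promoters with no Mix peak, 7 belonged to genes called higher. The rest belonged to genes that were not called, with RNA log2 ratios of both signs. These were TNS1 (−1.90), EPB41L3 (−1.22), PTPDC1 (−0.335), CXCL14 (−0.18) and AMPH (1.09). TNS1 had the largest promoter difference of all (3.30). Coverage under the threshold of the peak caller was not used here. IL11 had peaks of 20.8, 20.3 and 12.4 fold against 4.03, none and 7.26, and IGFN1 of 26.2, 18.0 and 16.4 against 4.48, 4.24 and 5.32. The promoters of NGFR (21.3 to 28.3 against 5.82 to 9.68 fold) and EGFR (7.94 to 14 against 4.24 to 5.81 fold), the genes whose proteins were sorted on, passed as well. ST3GAL6, a sialyltransferase, was the lower gene with a smaller peak, at 7.44, 4.73 and 3.47 against 28.7, 27.8 and 22.3 fold (−2.17 ± 0.19; limma adjusted p = 1.66e-06), and in primed cells it was at 13.9 to 25.0 CPM against 55.2 to 74.5. The promoters of CPA4 (chr7:130292911-130293210, plus strand) and ST3GAL6 (chr3:98763090-98763389, plus strand), from the same RefSeq table, are shown because CPA4 had a peak only in the EGFR/NGFR-high libraries and ST3GAL6 a smaller one there. Capitals mark a TEAD match 134 bases and AP-1 matches 48 and 15 bases before the start in CPA4, and an M-box match 107 bases before the start in ST3GAL6.
CPA4: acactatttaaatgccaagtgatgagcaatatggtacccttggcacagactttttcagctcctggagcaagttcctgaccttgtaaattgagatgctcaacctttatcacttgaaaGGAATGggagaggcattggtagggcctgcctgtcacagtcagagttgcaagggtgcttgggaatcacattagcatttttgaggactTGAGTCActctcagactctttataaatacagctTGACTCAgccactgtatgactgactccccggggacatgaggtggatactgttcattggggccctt
ST3GAL6: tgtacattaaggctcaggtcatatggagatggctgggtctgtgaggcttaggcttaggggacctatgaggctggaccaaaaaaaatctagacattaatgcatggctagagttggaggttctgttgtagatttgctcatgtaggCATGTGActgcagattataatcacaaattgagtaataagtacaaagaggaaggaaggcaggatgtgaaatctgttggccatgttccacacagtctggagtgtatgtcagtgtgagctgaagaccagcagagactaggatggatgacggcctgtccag

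**Figure D5:**
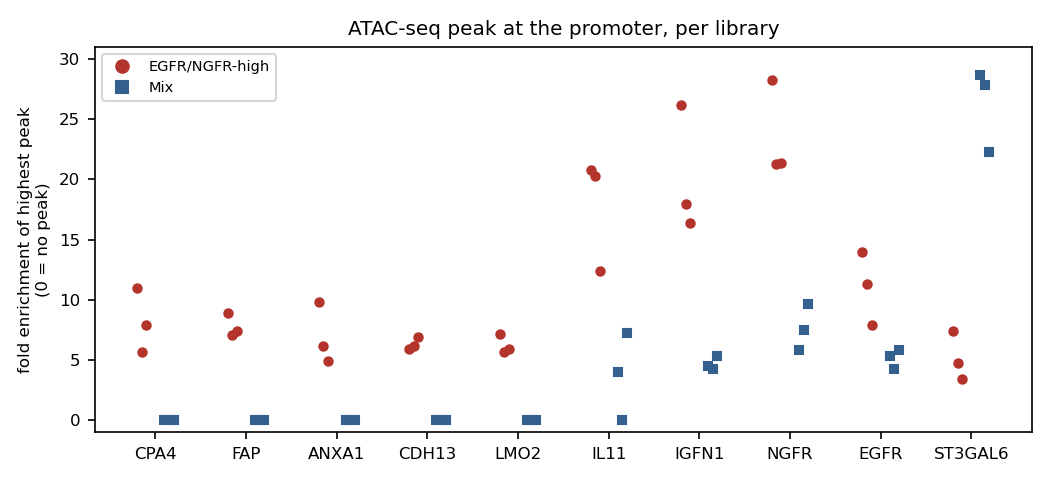
Fold enrichment of the highest ATAC-seq peak within 1000 bases of the start site (0 where no peak was called) in 3 EGFR/NGFR-high (circles) and 3 Mix (squares) libraries for 10 called genes. CPA4, FAP, ANXA1, CDH13 and LMO2 have a peak only in the EGFR/NGFR-high libraries, and ST3GAL6 is the gene with the higher peak in Mix.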

How the data were processed

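Members and gene lists were chosen with earlier results of these data known. Single-cell RNA-seq used 10x Genomics 3′ kits. Per the methods, the authors made UMI counts per gene and cell with Cell Ranger (hg38, version not given in the sources used here), filtered cells in Seurat V3 on genes per cell and mitochondrial percent before they deposited the counts, and assigned the well, replicate, cluster, state and phase labels used here. No doublet caller was run here. For ATAC-seq, the authors aligned with Bowtie2 2.3.4.1 and called peaks in each library with MACS2 2.1.1.20160309. The deposited lists hold the fold enrichment, a ratio over background, and the −log10 of the q-value. The latter only described the lists, and the EGFR-high and NGFR-high lists were not used here.

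Counts were summed per well and state and scaled to CPM. Ratios were log2((primed CPM + 1)/(drug-susceptible CPM + 1)) for the 9859 of 33538 genes that averaged 5 CPM or more across the 16 sums, which held 6768610 to 167862961 UMIs. With so many UMIs, counting error is small for genes far above the filter and matters for levels under 1 CPM in the smallest sums. As the labels came from these counts, states were not tested against each other. The state by replicate term was tested with edgeR 4.0.16 (quasi-likelihood, TMM, well as block) in R 4.3.3, promoter peaks with limma 3.58.1, both two-sided with Benjamini-Hochberg adjustment at 0.05, and per-well cell measures by exact sign-flip permutation. Start sites came from GENCODE 44 for 9680 genes, 243 through an older symbol. On simulated data, edgeR recovered 84% of 100 genes changed 2-fold and 98% of 100 changed 4-fold in the state by replicate term (9859 genes, 9 false calls), and limma 90% and 97% of promoters changed by 1 and 2 on the log2 scale (9472 promoters, 9 false calls). For edgeR the 16 simulated sums were independent, with no likeness between wells of a split suspension. Its false calls therefore say nothing about false calls among the real wells. For limma the simulated noise was normal and independent between promoters and libraries, with no shift of a whole library. The limma false calls likewise say nothing about false calls among the real libraries.

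Genes were named by fixed rules: the state markers, the 12 genes in each direction with the largest ratio in their weakest well, a mean of at least 10 CPM and no mention in the study's text, up to 4 called genes of each of 36 lists, 5 in each direction for the state by replicate term, for genes called in 7 wells and for G1, the most and least even called genes above 50 CPM, and called genes with a changed promoter peak. TYR, lower members of lists, MXI1 and the genes that changed direction were added after their values were seen. Alternatives were other scalings, pseudocounts, filters, phases, cells with a barcode, left-out wells or libraries, DESeq2 1.42.0 and, added after seeing the data, a further term for wells 1, 2, 5 and 6, wells summed in 4 pairs and promoters with a peak in all 6 libraries. Results for a few genes that these rules name are not reported here.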

Additional observations from a re-analysis of the deposited data

Results flagged for a closer look

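In well 5 the log2 ratio of NGFR was 2.54, below the other 7 wells by a gap past Dixon's critical value for 8 values. It was the only value that stood apart in 32 sets of 8 wells checked, most of them single genes, and chance alone sets about 1 in 20 groups apart.

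For each of 10 named genes the state by replicate term passed with the 8 wells as replicates (edgeR quasi-likelihood test, adjusted p under 0.05), and for none of them with the wells summed in 4 pairs (adjusted p of 0.723 to 0.76). The pairs were taken from the likeness of wells after seeing the data. The labels do not say whether they are the suspensions that were split over 2 wells. The log2 terms, r2 minus r1, were 6.04 for CCL3, 5.34 for CXCL8, 2.21 for MIR3681HG, 2.18 for CCDC26 and 1.48 for PRELP. They were −3.39 for CYTIP, −2.16 for NRP1, −2.08 for NGFR, −1.43 for COL9A3 and −1.42 for OLFML3. MIR3681HG and CCDC26 passed in 14 of 15 fits, COL9A3 and OLFML3 in 13, CCL3 in 10, NGFR in 9, CYTIP in 7, and CXCL8, NRP1 and PRELP in 5. Over these fits the term of CCL3 ranged from 4.09 to 6.67 and that of CXCL8 from 3.52 to 6.93.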

How the results depend on the processing

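The calls of 489 higher and 308 lower genes moved by more than 1.5 times under few settings. A mean of at least 20 CPM left 282 and 178 among 5802 genes, and S cells alone 195 lower. Pooling the wells, with no replicate block, gave 895 and 552, and the edgeR fold change fitted with well as block gave 883 and 555. TMM scaling, which moved the median of all genes by −0.08, gave 436 and 372. Leaving out 1 well gave 491 to 503 and 308 to 325, which could only keep or add genes, because a call needs every well. Of 450 alternative values of named genes, 444 kept their call and 6 lost it. Most of these genes were chosen for the largest ratio in their weakest well in these same data. Settings with only the r1 or r2 wells, a looser filter or 0.1 CPM added could only keep their calls. The count is therefore no test of the calls.

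The state by replicate count of 253 became 291 with total counts (177 larger, 114 smaller in r2), 390 with no filter on low counts, 95 in G1 cells, 51 with a replicate term in place of the well block, 575 with DESeq2 and 55 to 136 without 1 well. It was 1883 with the further term for wells 1, 2, 5 and 6 and 0 with wells summed in 4 pairs (582 at an unadjusted p under 0.05), both chosen after seeing the data. The sums in pairs left fewer residual degrees of freedom. Of 150 alternative values of its named genes, 95 kept their call and 55 lost it; none changed direction. The cause was not tested.

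Without 1 well the difference in log2 UMIs per cell was −0.49 to −0.42 and that in barcoded cells 3.48 to 5.89 points, the latter without well 7, where it passed (exact permutation p = 0.0313). In the untreated libraries, 87.1% of higher genes were past 2-fold with a pseudocount of 0.1 CPM, and 97.1% of higher and 89.8% of lower genes kept their direction in G1 cells. In WM983B 18.3% of higher genes were past 2-fold with that pseudocount and 20.5% in G1 cells.

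Of genes called higher, 33 promoters passed. Quantile normalization gave 21, and leaving out 1 replicate number 4 to 53, with the 4 without replicate 1. Of genes called lower the count was 2 with a pseudocount of 5 and 1 to 2 with a replicate left out, and of all promoters 94 and 7 to 153, against 54. With a peak required in all 6 libraries, added after seeing the data, the counts were 25, 2 and 55. Same-numbered libraries deviated together with correlations of 0.0901, 0.00218 and 0.0295, so the numbers do not pair them. A replicate block gave 56, 4 and 132. Depth limits levels under 1 CPM in the smallest sums.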
